A study of Caenorhabditis elegans with 6 samples.

Results

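A group of 10 maternal genes of Caenorhabditis elegans that set up the axis and the cell fates of the embryo was followed in RNA from dissected gonads: mex-5, mex-6, mex-1, pos-1, pie-1, mex-3, spn-4, nos-2, mbk-2 and zif-1. They were chosen by name for this role, matched by symbol to the gene identifiers of the count files, and make up 10 of 46934 genes listed there. The series holds 3 libraries of sin-3(tm1276) mutants and 3 of wild-type worms, each made from gonads of 5 to 7 young adults 12 h after the L4 larval stage. Only the part distal to the bend of each gonad was used, where germ line stem cells and germ cells in meiosis lie within a somatic sheath. SIN-3 is a scaffold on which histone deacetylases assemble, tm1276 is an allele of its gene, and no other allele, transgene or treatment is named for either genotype. Separate cultures are not stated for the samples of a genotype, so the p-values rest on a spread between samples that may be technical.

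The germ line makes these messenger RNAs and loads them into the oocyte, where most are held silent until the oocyte matures or the embryo divides. After fertilization the PAR proteins divide the zygote into an anterior and a posterior domain, MEX-5 and MEX-6 turn that polarity into gradients of other RNA-binding proteins, and MEX-3, POS-1, SPN-4 and MEX-1 then decide which stored messages are translated in which cells. PIE-1 and NOS-2 act in the germ cell lineage, MBK-2 is a kinase that marks oocyte proteins for destruction at the start of embryogenesis, and ZIF-1 recruits zinc finger proteins such as PIE-1 to a ubiquitin ligase in somatic cells.

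Gene-assigned reads ranged from 24491014 to 30634455 per library. The targeted gene sin-3 had 179.5, 175.5 and 184.1 CPM in the mutant libraries, against 366.8, 358.5 and 369.4 CPM in the wild-type libraries (CPM, counts relative to library size, adjusted by the trimmed mean method, TMM). Counts are per whole gene, so what tm1276 removes of the message cannot be read from them. Germ line marker genes were all detected, and their summed level was 3161 to 3191 CPM in the mutant and 3209 to 3419 CPM in wild type. Of these 12 markers 4 were lower and 1 was higher. By contrast 10 of 11 sperm markers failed the filter on low counts and ssp-16 had no read. Proximal oocyte markers summed to 7634 to 8197 CPM in the mutant and 9365 to 9671 CPM in wild type, with 6 of 11 lower and 2 higher. Since only tissue distal to the bend was used, this sum is not a measure of proximal oocytes. The edgeR test described below called 30.7% of all tested genes lower and 31.3% higher. Among autosomal protein-coding genes averaging 64 CPM or more it called 52.6% lower and 21.7% higher, near the shares of the proximal oocyte list. Of the proximal oocyte markers puf-5, egg-3, chs-1, oma-1, oma-2 and lin-41 are also counted in lists below. Somatic gonad markers summed to 576.2 to 631.4 CPM in the mutant and 313.0 to 329.6 CPM in wild type. Of 12 tested 7 were higher, against 31.3% of all tested genes, and none was lower. Of 16 listed ehn-3 was the marker at 0 in every library. A large part of the sum was the X-linked gene let-2, at 222.0 ± 14.7 CPM in the mutant and 100.0 ± 8.74 CPM in wild type (SD, n = 3 each). Markers of body muscle summed to 229.0 to 350.9 CPM in the mutant and 232.4 to 383.3 CPM in wild type, those of intestine to 250.2 to 315.3 CPM in the mutant and 239.4 to 618.7 CPM in wild type, and those of neurons to 49.8 to 54.8 CPM in the mutant and 73.2 to 78.8 CPM in wild type. Most of the neuron sum was snb-1, lower at 43.8 ± 1.42 CPM in the mutant and 67.9 ± 2.57 CPM in wild type (SD, n = 3 each), while egl-21 was also lower and unc-119 was higher, with a log2 fold change of 0.51. The part of these markers in the results below was not tested, and in whole tissue fewer cells of a type and less RNA per cell cannot be told apart.

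All 10 genes were measured well above the filter, with 1447 to 17650 reads per library, and the spread between libraries of a genotype was 1.31% to 9.25% of the mean. Under TMM scaling 6 of the 10 were lower in the mutant, 1 was higher and 3 were not called by the edgeR quasi-likelihood test with a Benjamini-Hochberg adjusted p under 0.05. The same test called 62.0% of all 9787 tested genes, 30.7% lower and 31.3% higher. Among autosomal protein-coding genes with a mean over all libraries of 64 CPM or more, which all 10 genes had, it called 74.4%, 52.6% lower and 21.7% higher. The median log2 fold change of the 10 genes was -0.16, beside -0.12 for those abundant autosomal genes and 0.028 for all tested genes. The share of the 10 genes that was called thus lay near the share among genes of like abundance. Of those abundant genes, 4.97%, 18.2% and 19.2% had a lower log2 fold change than mex-6, pie-1 and pos-1. For mex-5, spn-4 and mbk-2, also called lower, this was 32.6%, 40.0% and 45.7%. Their values lay within the quartiles of the abundant genes, -0.30 to 0.067. For mex-1 and zif-1 it was 54.5% and 52.5%. A higher value than that of mex-3 was held by 16.7%, and than that of nos-2 by 26.6%. Scaling by library totals moved the log2 fold change of all genes up by a median of 0.17, and under it 3 of the 10 genes were lower and 2 higher, against 19% lower and 45.4% higher (64.5% in all) of all tested genes. A fit of genes averaging 5 CPM or more called 4 lower and 2 higher, against 35.8% and 37.2% of its genes (73.0% in all), and a fit without X-linked genes called 5 lower and 2 higher, against 30.8% and 31.2% (62.0% in all). Shares among genes of like abundance were computed for the main fit only, so these backgrounds are not matched for abundance. The mutant libraries all lay below the wild-type libraries for 5 genes and all above for 2, against 33.0% and 34.8% of all tested genes (67.8% in all). Calls for 4 of the genes, mex-6, pos-1 and pie-1 lower and mex-3 higher, held under all 14 alternative settings, and those of the other 6 changed with at least 1 of them.

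**Figure D1:**
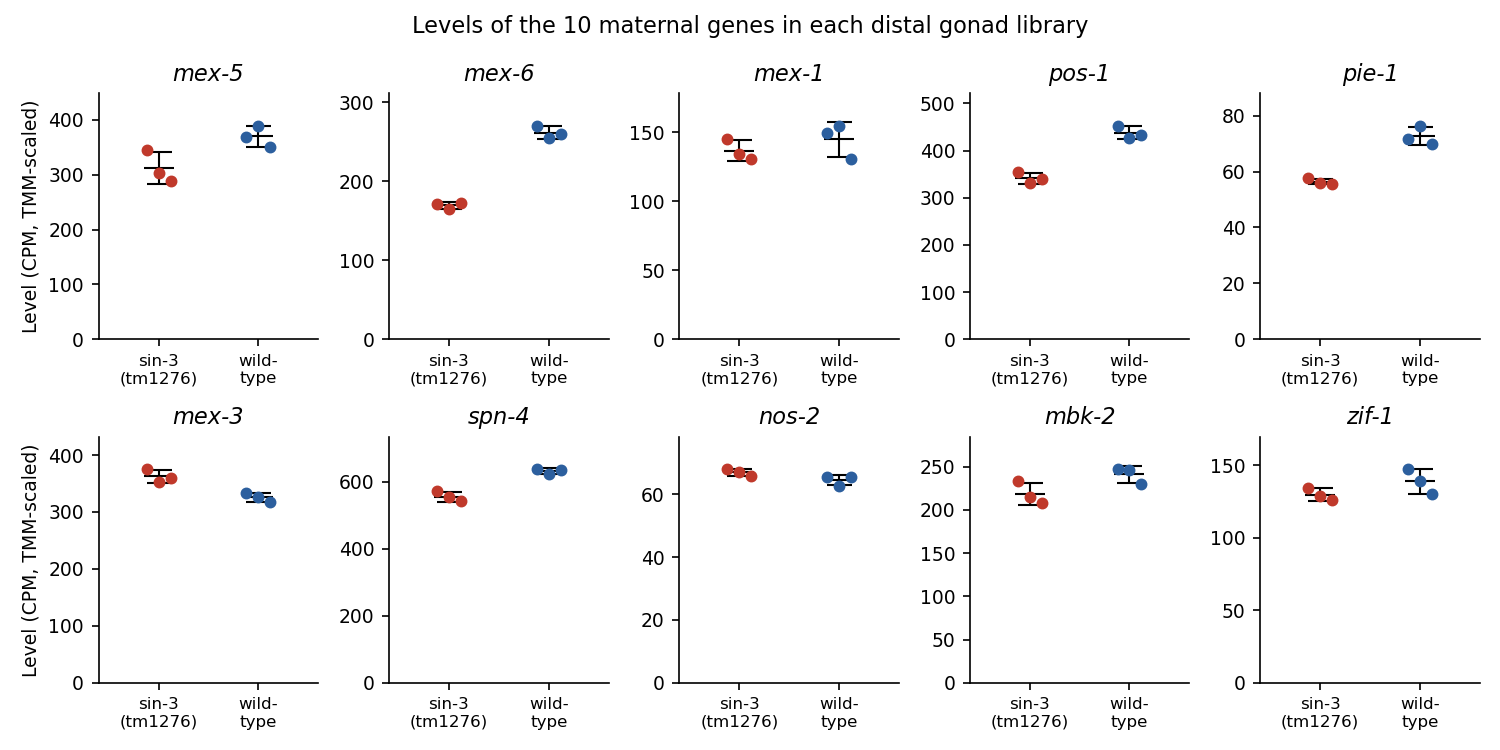
Level of each of the 10 genes in CPM after TMM scaling, 1 point per library, with the mean and SD of 3 libraries as black bars; each panel has its own axis from 0. The mutant libraries lie below all wild-type libraries for mex-5, mex-6, pos-1, pie-1 and spn-4, above them for mex-3 and, by a small margin, nos-2, and overlap them for mex-1, mbk-2 and zif-1.

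The largest change of the 10 was that of mex-6. Together with mex-5 it encodes a pair of closely related CCCH zinc finger proteins that partly stand in for each other at the head of the cytoplasmic polarity cascade. The gene mex-6 (WBGene00003231, chromosome II, 9524174 to 9526359 in WBcel235, 7 exons) had 171.7, 164.5 and 172.3 CPM in the mutant libraries, against 270.4, 254.2 and 259.8 CPM in the wild-type libraries. All 3 mutant values lay well below all wild-type values. Its log2 fold change was -0.63 ± 0.035 (SE) with an adjusted p of 3.67e-09 in edgeR, a level 35.2% lower, and 4.97% of the 3096 abundant autosomal protein-coding genes had a lower log2 fold change. Scaled by library totals the change was -0.46.

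The partner gene mex-5 (WBGene00003230, chromosome IV, 13353723 to 13356104, 5 exons) had 345.1, 303.8 and 289.4 CPM in the mutant libraries, against 369.1, 389.6 and 350.7 CPM in the wild-type libraries. The groups did not overlap, but mutant replicate 1 lay only a little below wild-type replicate 3. Its log2 fold change of -0.24 ± 0.069 (SE) passed the test with an adjusted p of 0.0161 in edgeR, and ended as a call when libraries were scaled by their totals, at -0.075 with an adjusted p of 0.351, and when only genes averaging 5 CPM or more were fitted, at -0.17 with an adjusted p of 0.0637.

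The proportion of mex-6 among the reads of the pair does not depend on how libraries are scaled. It was 33.2%, 35.1% and 37.3% in the mutant libraries, against 42.3%, 39.5% and 42.6% in the wild-type libraries. The ranges did not overlap. The mean was 35.2% ± 2.05 in the mutant and 41.4% ± 1.71 in wild type (SD, n = 3 each), a difference of -6.22 percentage points, and a two-sided exact permutation test gave p = 0.1, the lowest value it can reach with 3 libraries each. With counts divided by exon length the difference was -6.28 points. The protein pair is similar in sequence, and how many reads could not be told apart between the genes was not measured.

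The other CCCH zinc finger genes of the group, pos-1, pie-1 and mex-1, act downstream of this pair, and the first 2 of them fell. The gene pos-1, whose protein represses and activates stored messages in posterior cells, had 354.1, 331.0 and 340.3 CPM in the mutant libraries, against 453.1, 426.0 and 433.5 CPM in the wild-type libraries. Every mutant value lay below every wild-type value, by more than the spread within either genotype. On the log2 scale the fold change was -0.36 ± 0.036 (SE) with an adjusted p of 1.14e-06 in edgeR, and -0.19 when scaled by library totals. The gene lies on chromosome V, 8414086 to 8415254 (WBGene00004078), and has 2 exons.

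The gene pie-1, whose protein keeps transcription off in the germ cell lineage of the embryo, had 57.6, 56.0 and 55.7 CPM in the mutant libraries, against 71.7, 76.5 and 70.0 CPM in the wild-type libraries. The groups stood apart with narrow spread. Here the log2 fold change was -0.37 ± 0.045 (SE) with an adjusted p of 8.24e-06 in edgeR and -0.20 when scaled by library totals. The gene (WBGene00004027, chromosome III, 12426893 to 12429195) shares 24 exon bases with snr-6 on the other strand, a spliceosome gene at 83.8, 84.5 and 85.3 CPM in the mutant libraries and 102.0, 102.4 and 103.4 CPM in the wild-type libraries. Whether reads were counted by strand is not given in the sources used here, so reads of an overlap cannot be assigned to either gene.

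The gene mex-1, whose protein helps to place PIE-1 and the P granules in the germ cell lineage, was not called. It had 145.0, 134.2 and 130.5 CPM in the mutant libraries, against 149.4, 154.8 and 130.5 CPM in the wild-type libraries. The groups overlapped because wild-type replicate 3 was as low as the lowest mutant library. Its log2 fold change was -0.086 ± 0.066 (SE) with an adjusted p of 0.281 in edgeR. It turned to 0.081 under scaling by library totals, and without wild-type replicate 3 the gene was called lower, at -0.16 with an adjusted p of 0.00911. It lies on chromosome II, 11968637 to 11972330 (WBGene00003228).

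Of the other RNA-binding protein genes mex-3 rose, and nos-2 was not called in the main fit. Under library totals, in the fit of genes averaging 5 CPM or more and without X-linked genes nos-2 was called higher. These settings moved all shared genes up by a median of 0.17, 0.068 and 0.048. With library totals 45.4% of all tested genes were called higher. MEX-3 is a KH domain protein that represses messages such as that of the posterior fate gene pal-1 in germ line and anterior embryo. Its gene (WBGene00003229, chromosome I, 127285 to 134270, 8 merged exons) had 375.3, 353.0 and 359.5 CPM in the mutant libraries, against 333.4, 325.7 and 317.2 CPM in the wild-type libraries. The lowest mutant library was above the highest wild-type library. Its log2 fold change was 0.16 ± 0.035 (SE) with an adjusted p of 0.00133 in edgeR, and 0.32 when scaled by library totals. Among the abundant autosomal genes 16.7% had a higher log2 fold change.

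SPN-4, an RRM protein that sets the timing and orientation of early divisions, is encoded by the most abundant message of the 10, by CPM and per length. The gene spn-4 (WBGene00004984, chromosome V, 6783187 to 6784903, minus strand) had 571.2, 554.0 and 541.3 CPM in the mutant libraries, against 637.4, 622.1 and 635.1 CPM in the wild-type libraries. The groups did not overlap, and the log2 fold change was -0.19 ± 0.032 (SE) with an adjusted p of 1.74e-04 in edgeR. Scaled by library totals it was -0.019 and no longer called, with an adjusted p of 0.661.

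The Nanos gene nos-2, needed for the germ cell precursors of the embryo, had 68.1, 67.1 and 65.9 CPM in the mutant libraries, against 65.7, 62.6 and 65.5 CPM in the wild-type libraries. The mutant values lay above the wild-type values, but the nearest libraries were almost level. The log2 fold change of 0.053 ± 0.042 (SE) was not called in edgeR (adjusted p = 0.285). Scaled by library totals it was called in edgeR, at 0.22 with an adjusted p of 3.89e-04. With an offset that removes the trend of fold change with gene length it turned to -0.0062. That offset moved the log2 fold change of all shared genes by a median of -0.056. Leaving out single libraries gave 0.023, without wild-type replicate 2, to 0.059. It was also called among genes averaging 5 CPM or more, at 0.12, and without X-linked genes, at 0.10. The gene (WBGene00003784, chromosome II, 7065618 to 7067051) shares 154 exon bases with him-14, a MutS family gene of meiotic crossover formation, on the other strand, which had 43.3, 50.2 and 50.2 CPM in the mutant libraries against 98.8, 98.3 and 97.4 CPM in the wild-type libraries. How far the fall of him-14 touches the count of nos-2 was not tested.

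The 2 genes of protein turnover had small differences. The kinase gene mbk-2 (WBGene00003150, chromosome IV, 13009158 to 13035961, 14 annotated transcripts counted together) had 233.1, 214.6 and 207.9 CPM in the mutant libraries, against 247.4, 246.4 and 230.1 CPM in the wild-type libraries. Mutant replicate 1 lay above wild-type replicate 3. The log2 fold change was -0.14 ± 0.045 (SE) with an adjusted p of 0.0132 in edgeR. The call ended without X-linked genes, at -0.095 with an adjusted p of 0.0848, and with genes averaging 5 CPM or more, at -0.075 with an adjusted p of 0.15, and under scaling by library totals the value turned to 0.023 with an adjusted p of 0.661.

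The ubiquitin ligase adaptor gene zif-1 (WBGene00006977, chromosome III, 9002779 to 9004839) had 134.4, 129.1 and 125.8 CPM in the mutant libraries, against 147.3, 139.0 and 130.0 CPM in the wild-type libraries. The groups overlapped, and the log2 fold change of -0.097 ± 0.045 (SE) was not called in edgeR (adjusted p = 0.0741). It was called lower with relative log expression (RLE) size factors, at -0.11 with an adjusted p of 0.0399, with the replicate block, at -0.096 with an adjusted p of 0.0402, with the length offset, at -0.15 with an adjusted p of 0.00748, without mutant replicate 1, at -0.12 with an adjusted p of 0.0433, and without wild-type replicate 3, at -0.15 with an adjusted p of 0.00893, and it turned to 0.069 under scaling by library totals. Its exons share 19 bases with rab-6.1 on the other strand, which had 53.7, 57.4 and 56.5 CPM in the mutant libraries and 102.8, 96.7 and 99.6 CPM in the wild-type libraries. Exons of mex-1, spn-4 and mbk-2 share 18, 8 and 6 bases with genes on the other strand, and those of mex-3, mex-5, mex-6 and pos-1 share none.

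**Figure D2:**
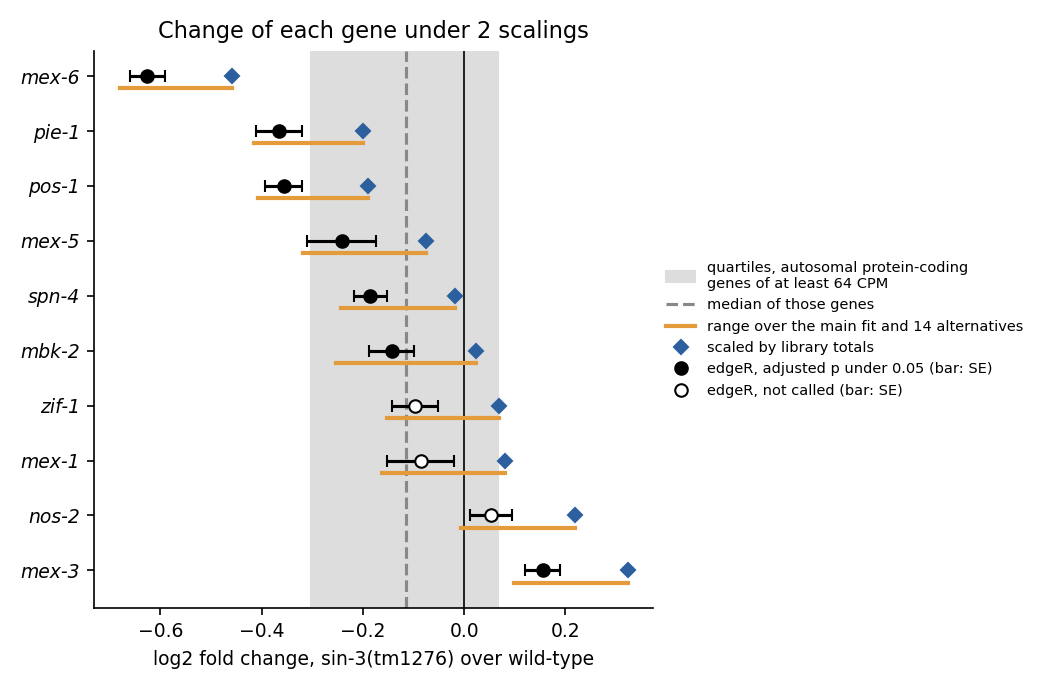
Log2 fold change of each gene, sin-3(tm1276) over wild-type, with its SE (black, filled where the adjusted p was under 0.05 in edgeR), the value when libraries are scaled by their totals (diamonds) and the range over 15 settings (orange). The grey band spans the quartiles and the dashed line the median, -0.12, of autosomal protein-coding genes averaging 64 CPM or more. The orange bars of mex-6, pie-1, pos-1, mex-5 and spn-4 stay below 0 and that of mex-3 above 0, whereas those of mbk-2, zif-1, mex-1 and nos-2 cross 0.

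The deposited comparison gave like values. In the authors' deposited table the log2 fold change was -0.66 for mex-6, -0.39 for pos-1, -0.39 for pie-1, -0.27 for mex-5, -0.22 for spn-4, -0.17 for mbk-2 and 0.12 for mex-3. In the authors' deposited table zif-1 had a log2 fold change of -0.13 and an adjusted p of 0.0396, on the other side of the threshold from the edgeR test. The genes mex-1 and nos-2 had adjusted p values of 0.23 and 0.839 in the authors' deposited table.

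Levels of different genes can be compared only per length of transcript, and on that scale the 10 messages covered an 8.32-fold range in wild type. Per kilobase of exon, spn-4 averaged 364.7 ± 9.86 CPM in the mutant and 414.7 ± 5.42 CPM in wild type, and pos-1 306.0 ± 10.4 CPM in the mutant and 391.7 ± 12.5 CPM in wild type (SD, n = 3 each). These 2 stood well above the rest in both genotypes. At the low end mbk-2, counted over the exons of all its transcripts, averaged 45.1 ± 2.695 CPM per kilobase in the mutant and 49.8 ± 2.00 CPM per kilobase in wild type (SD, n = 3 each). Its value in wild type did not differ from that of nos-2, at 52.0 ± 1.38 CPM per kilobase, beyond the spread of the libraries. Over its longest transcript alone mbk-2 stood higher, at 60.4 ± 3.61 CPM per kilobase in the mutant and 66.7 ± 2.68 CPM per kilobase in wild type (SD, n = 3 each), above nos-2 in both genotypes, above pie-1 in the mutant and overlapping pie-1 in wild type, and the 10 messages then covered a 7.97-fold range in wild type. The places of mbk-2, nos-2 and pie-1 at the low end therefore depend on the length used. In either case zif-1 and mex-1 overlapped in both genotypes, at 72.7 ± 2.46 and 72.8 ± 4.03 CPM per kilobase in the mutant and 77.8 ± 4.84 and 77.2 ± 6.82 CPM per kilobase in wild type (SD, n = 3 each). By CPM the 10 genes lay between the 68.0th and the 97.9th percentile of all tested genes.

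Besides the near-tie of zif-1 and mex-1, the order differed between the genotypes at 2 places. In the mutant mex-3 had a higher mean than mex-5, at 177.6 ± 5.63 against 158.4 ± 14.6 CPM per kilobase, with libraries that overlapped. In wild type mex-5 stood above mex-3, at 187.2 ± 9.87 against 159.4 ± 3.97 CPM per kilobase, with no overlap. Likewise nos-2 stood above pie-1 in the mutant, at 53.95 ± 0.90 against 50.6 ± 0.95 CPM per kilobase, with no overlap. In wild type pie-1 stood above nos-2, at 65.2 ± 3.004 against 52.0 ± 1.38 CPM per kilobase, also with no overlap (SD, n = 3 for each).

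**Figure D3:**
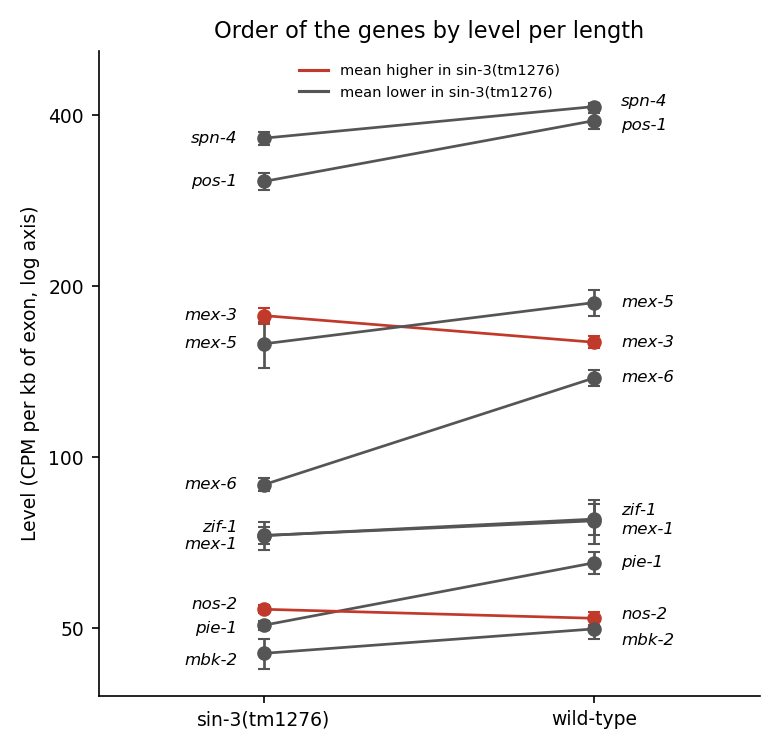
Mean level of each gene per kilobase of exon (log axis, CPM per kb) in sin-3(tm1276) and wild-type libraries, with SD of 3 libraries. Lines of mex-3 and nos-2, drawn in red, go up toward the mutant and cross those of mex-5 and pie-1, and mex-6 drops away from mex-3 to 89.4 CPM per kb in the mutant, against 138.0 CPM per kb in wild type.

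Together the 10 genes summed to 2456, 2307 and 2288 CPM in the mutant libraries, against 2745, 2697 and 2622 CPM in the wild-type libraries, with no overlap under TMM scaling. As a plain percent of each library, which is scaling by library totals, they took 0.261%, 0.240% and 0.246% of gene-assigned reads in the mutant libraries, against 0.258%, 0.254% and 0.248% in the wild-type libraries, and on that scale the genotypes overlapped. Proportions among the 10 messages within a library carry no scaling between libraries, and they are given as a description. Of the reads of the 10 genes mex-3 took 15.3%, 15.3% and 15.7% in the mutant libraries, against 12.1%, 12.1% and 12.1% in the wild-type libraries. The share of mex-6 was 6.99%, 7.13% and 7.53% in the mutant libraries, against 9.85%, 9.42% and 9.91% in the wild-type libraries. Neither gene's shares overlapped between genotypes, and they moved in opposite directions.

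The shares of pos-1 and pie-1 were also below wild type in every mutant library, at means of 14.5% and 2.40% in the mutant and 16.3% and 2.71% in wild type. Those of nos-2 and zif-1 were above wild type in every mutant library, at 2.85% and 5.52% in the mutant and 2.40% and 5.16% in wild type. Since shares of 1 sum are bound to each other, a drop of some raises the others. For mex-1, mex-5, spn-4 and mbk-2 the shares overlapped between genotypes. The ratio of mex-3 to mex-6 reads, a pair picked after their values were seen, was 2.19, 2.15 and 2.09 in the mutant libraries and 1.23, 1.28 and 1.22 in the wild-type libraries. The ratio of mex-3 to pos-1 reads, picked in the same way, was 1.06, 1.07 and 1.06 in the mutant libraries and 0.736, 0.765 and 0.732 in the wild-type libraries.

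**Figure D4:**
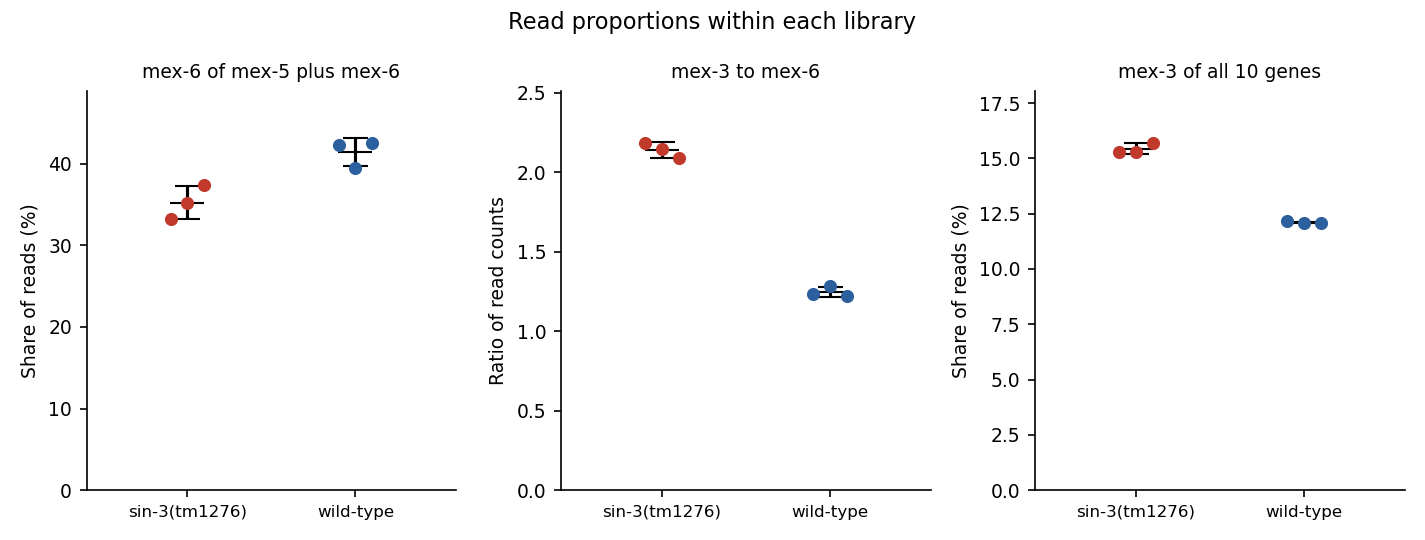
Read proportions within each library, 1 point per library with the mean and SD of 3 as black bars, axes from 0: mex-6 as a percent of mex-5 plus mex-6 reads, the ratio of mex-3 to mex-6 reads, and mex-3 as a percent of the reads of all 10 genes. In each panel the 3 sin-3(tm1276) points lie apart from the 3 wild-type points, at means of 35.2% and 41.4%, 2.14 and 1.25, and 15.4% and 12.1%.

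Lists of genes that act with the 10 were counted in the same fit, in which 30.7% of all tested genes were lower and 31.3% higher (62.0% in all), and 52.6% of abundant autosomal genes lower and 21.7% higher (74.4% in all). All 20 genes listed around the turnover of maternal proteins were tested. Of these 15 fell, none rose and 5 were not called in edgeR, with a median log2 fold change of -0.25. The list also holds mei-1, mei-2, egg-3 and puf-3, which fell, and chs-1, not called, which do not themselves turn over proteins. The gene puf-3 is counted again among the regulators of stored messages below. The share called was near the 74.4% of abundant autosomal genes, though with no gene higher. Genes of the ligase that ZIF-1 serves, the scaffold gene cul-2, the elongin genes elc-1 and elb-1 and the RING protein gene rbx-1, fell, also under all 14 alternatives. The gene cul-2 averaged 170.0 ± 4.59 CPM in the mutant and 247.2 ± 3.32 CPM in wild type (SD, n = 3 each), a log2 fold change of -0.54 ± 0.033 (SE), or -0.37 when scaled by library totals. Its partners elc-1, rbx-1 and elb-1, named after their values were seen because they complete this ligase, differed by -0.76 ± 0.069, -0.48 ± 0.045 and -0.43 ± 0.061 on the log2 scale (SE). The adaptor zif-1 itself, at -0.097, was not called.

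Among partners of MBK-2, the pseudophosphatase gene egg-5 fell, at 73.6 ± 3.84 CPM in the mutant and 132.1 ± 8.57 CPM in wild type (SD, n = 3 each), whereas its close paralogue egg-4 was not called, at 101.7 ± 1.61 CPM in the mutant and 103.2 ± 4.99 CPM in wild type (called higher, at 0.15, when scaled by library totals). The 2 genes are near copies, so their separate counts are uncertain. The third gene of this list with the smallest p was zer-1, a substrate receptor of CUL-2 ligases, with a log2 fold change of -0.50 ± 0.035 (SE). Scaled by library totals, 9 of the 20 were lower and 2 higher, against 19% and 45.4% of all tested genes.

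Of 20 genes of the PAR polarity network 7 fell, 4 rose and 9 were not called in edgeR, at a median of -0.022. The 11 called were a share near the 62.0% of all tested genes and below the 74.4% of abundant autosomal genes. Over all settings the number called ran from 10 to 15. The mitotic kinase gene air-1 fell to 104.3 ± 3.66 CPM in the mutant, against 175.8 ± 4.73 CPM in wild type, the non-muscle myosin gene nmy-2 to 1199 ± 20.2 CPM in the mutant, against 1621 ± 8.79 CPM in wild type, and the 14-3-3 gene par-5 to 855.9 ± 14.2 CPM in the mutant, against 1076 ± 34.9 CPM in wild type (SD, n = 3 each). The GTPase gene rho-1, the anterior complex genes par-6 and par-3 and the kinase gene par-4 rose, by 0.36 ± 0.061, 0.33 ± 0.048, 0.088 ± 0.031 and 0.24 ± 0.041 on the log2 scale (SE), though par-3 turned to -0.027 with the length offset. The kinase gene par-1, which acts directly upstream of MEX-5 and MEX-6, had a log2 fold change of 0.017 ± 0.039 (SE) and was not called, but was called higher, at 0.18, with library totals and lower, at -0.12, with the length offset. When libraries were scaled by totals, 3 genes of the network were lower and 12 higher, beside 19% and 45.4% of all tested genes.

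Of 30 regulators of stored messages and P granules 14 fell, 8 rose and 8 were not called in edgeR, at a median of -0.13. The share called was near the 74.4% among abundant autosomal genes. The Pumilio family genes puf-5 and puf-3 fell, with log2 fold changes of -0.60 ± 0.039 and -0.42 ± 0.035 (SE), as did gls-1, a partner of the polyadenylation factor GLD-3, at -0.34 ± 0.036 (SE). The genes with the smallest p among those that rose were meg-3, meg-1 and meg-2, of germ granule proteins in the embryo. The gene meg-1 averaged 143.7 ± 12.1 CPM in the mutant and 94.8 ± 3.64 CPM in wild type, and meg-3 86.3 ± 4.89 CPM in the mutant and 59.0 ± 2.96 CPM in wild type (SD, n = 3 each). They are X-linked, as is meg-4, and X-linked genes as a whole had a median log2 fold change of 0.54. With totals as the scale, 9 of the 30 were lower and 12 higher, beside the same 19% and 45.4%. Of the relatives of nos-2, nos-1 was called higher, at 0.11 ± 0.043 (SE), but in only 5 of 15 settings, and not with the length offset, at 0.048 with an adjusted p of 0.367. The relative nos-3 was not called, at -0.078 ± 0.037 (SE), turned to 0.088 with library totals and was called lower with the length offset, at -0.17 with an adjusted p of 0.00125.

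Of 20 maternal genes in the Notch, Wnt and other pathways that the 10 proteins control or act beside, 11 fell, 4 rose and 5 were not called in edgeR, at a median of -0.11. Here too the share called was near the 74.4% of abundant autosomal genes. The Dishevelled gene dsh-2 averaged 72.2 ± 2.13 CPM in the mutant and 145.4 ± 4.75 CPM in wild type (SD, n = 3 each), a log2 fold change of -1.01 ± 0.039 (SE). The APC-related gene apr-1 and the kinase gene src-1 fell by 0.48 and 0.53 on the log2 scale. The 4 that rose were the endoderm and mesoderm factor gene skn-1, the Porcupine gene mom-1, which is X-linked, the kinase gene mom-4 and the presenilin complex gene aph-1, at 0.56, 0.72, 0.28 and 0.30. Some known targets of the 10 proteins were among the uncalled genes. The Notch receptor gene glp-1, a target of POS-1 and SPN-4, averaged 424.2 ± 7.49 CPM in the mutant and 425.2 ± 6.95 CPM in wild type. The MEX-3 target pal-1 averaged 114.8 ± 5.31 CPM in the mutant and 120.4 ± 5.65 CPM in wild type (SD, n = 3 each). Scaled by library totals glp-1 was called higher, at 0.16, and pal-1 turned to 0.098, while with the length offset both were called lower, at -0.10 and -0.13. These uncalled targets do not stand for the list, in which apx-1 and mom-2 were called lower in all 15 settings. Their log2 fold changes were -0.64 ± 0.071 and -0.38 ± 0.038 (SE). With totals 6 of the 20 were lower and 7 higher, against 19% and 45.4% of all tested genes.

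Genes that the embryo switches on later to carry out these fates had few or no reads. Of 15 such genes, 13 failed the filter on low counts, and med-1, med-2, tbx-35 and tbx-38 had no read in any library. For tbx-35 this allows up to 0.0942 to 0.130 CPM per library (3 counts, for counting error only). The genes med-1 and med-2 are near copies, as are tbx-38 and tbx-37, and reads that match both copies may be in no gene's count, so their counts of 0 set no such limit. The 2 that were tested, elt-1 and hnd-1, were not called. The summed level of the 15 genes was 4.65 to 5.57 CPM in the mutant and 4.04 to 4.91 CPM in wild type, ranges that overlapped.

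**Figure D5:**
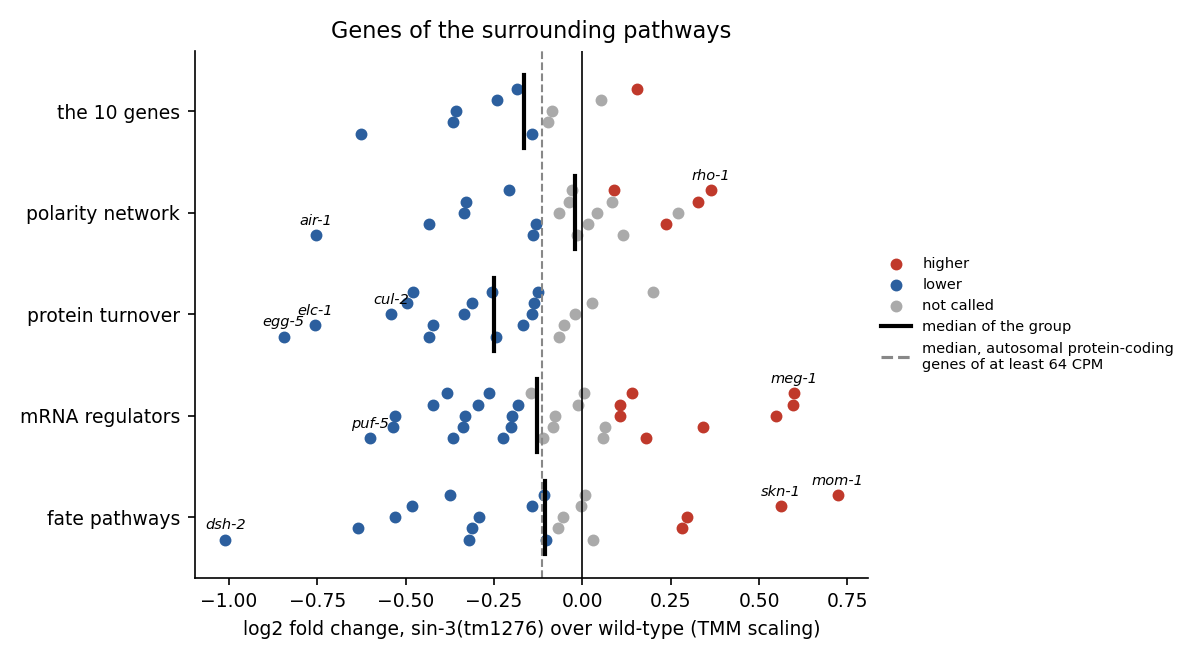
Log2 fold change of the 10 genes and of 4 lists of genes that act with them, 1 point per gene, red where higher, blue where lower and grey where not called by edgeR at an adjusted p under 0.05, with the median of each list (black bar) and of abundant autosomal protein-coding genes, -0.12 (dashed). The protein turnover list has the lowest median, -0.25, and no red point, with 2 uncalled genes, gsk-3 at 0.20 and chs-1 at 0.027, above 0, while the other 3 lists hold genes called in both directions.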

How the data were processed

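RNA of distal gonad arms was sequenced from total RNA with a stranded, ribosomal-RNA-depleting kit and single-end reads of 50 bases, per the labels' protocols. The authors deposited whole-number counts per gene, 1 file per sample, and a table of their own comparison holding p-values and log2 fold changes with their errors, per the file headers. The mean normalized signal in that deposited table was not used. The submitters' processing notes name the aligner STAR 2.7.3a, the read trimmer fastp 0.20.1, DESeq2 1.36.0 and the counter HTSeq 0.7.2, with no role or setting. No source used here gives the genome build, annotation or strand setting. Lines that name no gene held 8.73% to 10.9% of counted reads and were left out of library sizes and tests.

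Names, coordinates and exon lengths came from Ensembl release 115 of WBcel235, to which 46923 of 46934 identifiers and all 10 members matched. Genotype was tested on the counts with edgeR 4.0.16 under R 4.3.3 (filterByExpr, TMM scaling, robust quasi-likelihood F test on genotype, Benjamini-Hochberg over 9787 genes, threshold 0.05). SE are on the log2 scale, and positive changes mean higher in the mutant. Levels per length used the union of a gene's exons, or as an alternative its longest transcript. The alternatives were scaling by library totals or RLE size factors, DESeq2 1.42.0, no filter, a mean of at least 5 CPM, a fit without X-linked genes, a replicate block and each library left out. An offset for gene length was added after the data were seen. On counts simulated for this comparison, with 9567 genes tested, edgeR recovered 78.7% of genes set to a log2 fold change of -1, 79.2% at 1, 64.3% at -0.5 and 65.8% at 0.5, with 13 false calls. Few genes were changed in that simulation, in both directions, with all others equal between genotypes. In the data 62.0% of tested genes were called, so the simulation cannot measure errors that come from scaling here. Libraries of a genotype differed beyond sampling noise, since the chi-square per degree of freedom was 12.5 to 18.8. Depth limits counts of 0 to 0.0942 to 0.130 CPM, for counting error only.

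The members and gene lists were chosen with earlier results of these data known. All members are named; of each list, the 3 called genes with the smallest p in each direction, or all where 5 or fewer were called. Other genes are partners or targets of the members, named for that role after their values were seen. No sequences are shown.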

Additional observations from a re-analysis of the deposited data

How the results depend on the processing

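Over the 14 alternatives mex-3, mex-6, pos-1 and pie-1 kept their direction and call, with log2 fold changes of 0.099 to 0.32, -0.68 to -0.46, -0.41 to -0.19 and -0.42 to -0.20. Library totals gave 2 higher and 3 lower members, and ended the calls of mex-5 (-0.075) and spn-4 (-0.019), made nos-2 called (0.22) and turned mex-1 (0.081), mbk-2 (0.023) and zif-1 (0.069). A mean of at least 5 CPM gave 2 higher and 4 lower, with mex-5 at -0.17 and mbk-2 at -0.075 no longer called and nos-2 called at 0.12. Without X-linked genes there were 2 higher and 5 lower, with mbk-2 at -0.095 not called and nos-2 at 0.10 called. RLE size factors called zif-1 at -0.11. The gene length offset called mex-1 at -0.14 and zif-1 at -0.15 and turned nos-2 to -0.0062. Across all shared genes the median shift from the main fit was 0.17 for library totals and 0.068 for the 5 CPM filter. It was 0.048 once X-linked genes were dropped, -0.012 for RLE size factors and -0.056 for the length offset. Each member moved in the same direction as these medians. With the length offset mbk-2 moved further, from -0.14 to -0.25. Any cause beyond this shift in scale was not tested. With single libraries left out, mex-1 ranged from -0.16 to -0.043 zif-1 from -0.15 to -0.058 and nos-2 from 0.023 to 0.059, and the difference in the mex-6 share from -7.27 to -5.22 points. Under the replicate block 1 member was higher and 7 lower, with zif-1 called at -0.096. Same-numbered libraries had deviations correlated at -0.26, -0.078 and -0.13, and differently numbered ones at -0.12 to 0.20, so no pairing by number was seen. Deviations from means of 3 libraries are tied to each other, so these values cannot decide whether same-numbered libraries were prepared together. The longest transcript in place of all exons moved the range of levels in wild type to 7.97-fold and mbk-2 above nos-2. The SE of 0.032 to 0.069 on the log2 scale, from 3 libraries each, limits which small changes can be called.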
